A study of Mus musculus with 5 samples.

Results

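The 51 genes described here are those of the peak tables whose symbols begin with the prefixes of receptors for adrenaline, serotonin, dopamine, acetylcholine, GABA, glutamate, somatostatin, histamine, neuropeptide Y and opioids, or with Gpr, the root given to many orphan G-protein receptors. They were chosen by name among the 1942 symbols in any of 4 tables, with the Gprc, Gprin and Gprasp symbols left out. Being listed in at least 1 table is thus part of the choice, and is no finding. The name fits 47 of the 51. The other 4 are Htra1, Htra3 and Htra4, which encode serine proteases and share their first letters with the serotonin receptors, and Npy, which encodes the peptide neuropeptide Y and not a receptor. Of the 47 receptor genes, 36 encode G-protein receptors and 11 encode subunits of ligand-gated ion channels.

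The study asked how the genomic sites of SUZ12 change with the form of MBD3, which belongs to NuRD, a complex that remodels nucleosomes and removes acetyl groups from histones. SUZ12 was mapped by chromatin immunoprecipitation and sequencing in 4 cultures of male 129SV mouse embryonic stem (ES) cells. All 4 carried a knockout of Mbd3 and were grown in ES cell medium with LIF. In the order used below, they were ΔCC, a form of MBD3a without the coiled-coil domain, ΔMBD, a form without the methyl-CpG-binding domain, WT, and GFP. WT is read here as full-length MBD3 and GFP as the control without MBD3, since the labels give only these names. How the forms were introduced, from which promoter, and in how many clones is not given in the sources used here. Each culture gave 1 library, so no test between cultures can be run. The input sample, made without antibody from EBRTcH3 cells per the labels, was not used here. Among 8 pluripotency genes that ES cells use, Esrrb alone had a SUZ12 peak, in every library.

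SUZ12 belongs to PRC2, the Polycomb complex whose enzyme methylates lysine 27 on histone H3. In ES cells PRC2 occupies CpG-rich promoters of many genes that are silent there and used later in differentiated tissue, the nervous system among them. G-protein receptors answer a transmitter by changing the levels of second messengers inside the cell, while ligand-gated channels open a pore for ions.

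The deposited tables link peaks to genes and state how far in bp each centre lies from the transcription start, with positive values downstream. A gene counts as listed in a library if any centre fell within 5 kb of its start. No gene of the 51 had a pair beyond 5 kb, which is no finding, since the deposited links were themselves made with a 5000 bp setting. Adra2c had the peaks nearest to that limit, at +4979 bp in WT and +4601 bp in ΔMBD. Peak heights, widths and read numbers are not in the tables, so the depth of the libraries and the strength of each peak are unknown. A number of peaks at a gene depends on how the caller divided a broad region, and is not a measure of how much SUZ12 was bound.

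Promoters of 6 receptor genes are shown. Each had its closest SUZ12 peak centred within 500 bp of the start in every library that listed it, and together they cover 5 different patterns of listing. Hrh1 and Gria2 met the same distance rule and are not shown, since at most 6 were printed. The sequences are RefSeq promoters on GRCm38.p6, from 250 bases before to 50 bases after the start. The start in the peak tables, which are on mm9, may differ. They run 5′ to 3′ on the strand of the gene, with each CpG dinucleotide in capitals. Grm8, a metabotropic glutamate receptor listed in all 4 libraries, has 3 starts in the RefSeq table, and the first is shown (chr6:28135097-28135396, minus strand). Gpr176, an orphan receptor of the circadian clock neurons, was listed in every library but GFP (chr2:118373370-118373669, minus strand). Chrna4, a nicotinic acetylcholine receptor subunit, was listed in ΔCC and WT (chr2:181039128-181039427, minus strand). Gpr126, an adhesion receptor that Schwann cells need for myelination, was listed in ΔMBD and WT (chr10:14544987-14545286, minus strand), as was Oprd1, the delta opioid receptor (chr4:132144437-132144736, minus strand). Sstr2, a somatostatin receptor, was listed in ΔMBD alone (chr11:113619077-113619376, plus strand).
Grm8: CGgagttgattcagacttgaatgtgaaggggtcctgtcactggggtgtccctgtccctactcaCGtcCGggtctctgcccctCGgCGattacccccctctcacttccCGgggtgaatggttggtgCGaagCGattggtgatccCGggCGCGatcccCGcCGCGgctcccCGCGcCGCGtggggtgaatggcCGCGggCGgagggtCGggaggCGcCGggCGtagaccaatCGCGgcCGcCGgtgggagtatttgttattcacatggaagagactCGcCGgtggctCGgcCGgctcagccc
Gpr176: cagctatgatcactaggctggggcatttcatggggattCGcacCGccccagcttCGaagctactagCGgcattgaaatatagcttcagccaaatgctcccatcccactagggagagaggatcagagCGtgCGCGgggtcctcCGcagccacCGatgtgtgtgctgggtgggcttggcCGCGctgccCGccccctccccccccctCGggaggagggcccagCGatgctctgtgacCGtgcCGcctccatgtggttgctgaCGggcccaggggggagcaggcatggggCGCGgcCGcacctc
Chrna4: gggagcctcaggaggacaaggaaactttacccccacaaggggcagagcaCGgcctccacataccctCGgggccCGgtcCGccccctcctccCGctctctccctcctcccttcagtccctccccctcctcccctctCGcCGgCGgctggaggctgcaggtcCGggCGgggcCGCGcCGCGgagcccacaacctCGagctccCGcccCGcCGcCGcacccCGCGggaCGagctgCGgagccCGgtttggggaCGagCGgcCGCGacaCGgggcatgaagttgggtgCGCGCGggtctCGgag
Gpr126: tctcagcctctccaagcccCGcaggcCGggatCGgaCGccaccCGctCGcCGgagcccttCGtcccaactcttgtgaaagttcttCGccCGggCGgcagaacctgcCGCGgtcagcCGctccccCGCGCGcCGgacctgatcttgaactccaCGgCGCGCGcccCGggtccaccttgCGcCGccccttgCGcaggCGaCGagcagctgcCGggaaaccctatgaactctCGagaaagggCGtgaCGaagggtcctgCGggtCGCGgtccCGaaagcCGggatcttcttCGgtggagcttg
Oprd1: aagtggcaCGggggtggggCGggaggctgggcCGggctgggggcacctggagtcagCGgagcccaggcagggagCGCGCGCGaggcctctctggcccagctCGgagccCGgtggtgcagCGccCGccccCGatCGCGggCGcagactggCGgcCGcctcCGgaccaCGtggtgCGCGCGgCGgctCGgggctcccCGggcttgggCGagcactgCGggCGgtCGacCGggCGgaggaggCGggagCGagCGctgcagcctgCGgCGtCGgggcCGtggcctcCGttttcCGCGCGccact
Sstr2: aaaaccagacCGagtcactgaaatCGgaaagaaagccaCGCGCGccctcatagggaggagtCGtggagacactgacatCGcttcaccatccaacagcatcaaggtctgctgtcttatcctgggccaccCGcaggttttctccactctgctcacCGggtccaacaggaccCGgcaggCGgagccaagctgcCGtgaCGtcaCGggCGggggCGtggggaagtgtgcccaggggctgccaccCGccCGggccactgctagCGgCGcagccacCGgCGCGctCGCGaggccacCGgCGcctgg

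These 6 promoters hold between 20 CpG in Gpr176 and 43 in Oprd1, with 33 each in Grm8 and Chrna4, 38 in Gpr126 and 27 in Sstr2. The median over the 32851 promoters of the table is 7, and 94.6% of them hold at least 1. The share of those promoters with fewer CpG was 73.5% for Gpr176, 84.5% for Sstr2, 91.4% for Grm8 and Chrna4, and 97.4% for Oprd1. The promoter with the fewest CpG of the 6, that of Gpr176, lay above the median, and the order of CpG number did not follow the number of libraries that listed the gene. Over the whole set no summary of CpG content is given, because 36 of the 51 genes (70.6%) had an entry, under the 80% set for such a summary.

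Of the 51 genes, 35 were listed in ΔCC, 45 in ΔMBD, 47 in WT and 27 in GFP. These are 68.6%, 88.2%, 92.2% and 52.9% of the set, in that order. Among the 1935 genes listed in any library, 63.1% were listed in ΔCC, 86.7% in ΔMBD, 86.0% in WT and 54.3% in GFP. All 4 of these background shares lie inside the exact 95% binomial intervals of the set, which run from 54.1 to 80.9% in ΔCC, 76.1 to 95.6% in ΔMBD, 81.1 to 97.8% in WT and 38.5 to 67.1% in GFP. Such intervals cover counting error over genes only. The receptor genes thus followed the lengths of the 4 lists, and no pattern particular to them is read from these counts.

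Set beside the protein-coding symbols of these families in RefSeq, the listed genes are a minority. The count used is 193 symbols, of which at least 6 encode no receptor. It includes Gpr124 and Gpr126 under their current names Adgra2 and Adgrg6. Any renamed gene that no library listed is left out, so the shares of the families may be too high. The 51 in any library are 26.4% of them (interval 20.4 to 33.2), beside 8.47% of all 21900 protein-coding symbols. Of the 193, 18.1% (interval 13.0 to 24.3) were listed in ΔCC, 23.3% (17.5 to 29.9) in ΔMBD, 24.4% (18.5 to 31.0) in WT and 14.0% (9.43 to 19.7) in GFP. The shares of all protein-coding symbols were 5.37% in ΔCC, 7.37% in ΔMBD, 7.32% in WT and 4.61% in GFP, each below the interval of the families. No test is attached, since the families were chosen with earlier results of these data known.

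The adrenergic receptors, which bind adrenaline and noradrenaline, had 7 of 9 genes listed in some library. Adra1d, Adra2a, Adra2b, Adra2c and Adrb1 were listed in all 4, and Adra1b in none. Adra2c had 3 peaks in ΔCC, 4 in ΔMBD, 3 in WT and 3 in GFP, the highest sum of the set. Adra1d had 3 peaks in ΔCC, 4 in ΔMBD, 2 in WT and 2 in GFP. The peak of Adra2a closest to the start lay at +1156 bp in ΔCC, +1480 bp in ΔMBD, +1192 bp in WT and +1178 bp in GFP. The ΔCC, WT and GFP positions were close together and the ΔMBD position was farther downstream, and ΔCC alone had another peak, at +3056 bp. Over all genes shared by ΔMBD and WT the closest centre moved by a median of 390 bp, so the ΔMBD position is not read as standing apart. All 3 alpha-2 genes, whose receptors lower cyclic AMP through Gi proteins, were in every list.

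A pair of adrenergic genes left that pattern. Adra1a, an alpha-1 receptor that acts through Gq, had 2 peaks in ΔCC at -147 and +587 bp, none in ΔMBD, none in WT and 1 in GFP at +1753 bp. It was the only gene of the 51 that GFP or ΔCC listed and WT did not. Adrb3, the beta receptor of fat tissue, had 1 peak, at +1670 bp in WT, and none in the other libraries.

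The serotonin receptors had 5 of 14 genes listed in some library. Htr1b, Htr5b and Htr6 were listed in all 4. Htr1b had 2 peaks in ΔCC, 3 in ΔMBD, 2 in WT and 1 in GFP. The closest of these were at -509 bp in ΔCC, -82 bp in ΔMBD, +174 bp in WT and -32 bp in GFP, on both sides of the start. Htr1a, which encodes the autoreceptor of serotonin neurons, and Htr7 were listed in ΔMBD and WT and not in ΔCC or GFP. Htr1a had 2 peaks in ΔMBD, at +271 and +1550 bp, and 3 in WT, at +615, +1268 and +2063 bp.

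For dopamine, Drd4 and Drd5 were listed and Drd1, Drd2 and Drd3 were in no table. Drd4 had 2 peaks in ΔCC, 3 in ΔMBD, 2 in WT and 3 in GFP. Drd5 had 1 peak in ΔCC at +630 bp, 4 in ΔMBD from -1205 to +1217 bp, 1 in WT at -23 bp and none in GFP. ΔMBD was thus highest at Drd5, with 4 centres over the stretch where ΔCC and WT had 1.

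The muscarinic acetylcholine receptors split by subtype, a division seen only after the values were known. Chrm2 and Chrm4, whose receptors act through Gi, were listed, and Chrm1, Chrm3 and Chrm5, which act through Gq, were in no table. The split does not extend to Gi receptors at large, since Drd2, Drd3, Grm2, Grm3, Htr1d and Htr1f, whose receptors also act through Gi, were in no table. Chrm2 had 1 peak in ΔCC, 2 in ΔMBD, 1 in WT and none in GFP. Chrm4 had none in ΔCC, 1 in ΔMBD, 2 in WT and none in GFP. Of the 16 nicotinic subunit genes, Chrna4 alone was listed, at -230 bp in ΔCC and -330 bp in WT.

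The metabotropic glutamate receptors showed the most even listing. Grm4, Grm6, Grm7 and Grm8 form the group III receptors, which act through Gi at presynaptic endings or, for Grm6, in ON bipolar cells of the retina. All 4 were listed in every library, while Grm2, Grm3 and Grm5 of the other groups were listed in none. This split too was seen after the values were known and carries no test. Grm4 had 2 peaks in each library. Its closest lay at +642 bp in ΔCC, +438 bp in ΔMBD, +230 bp in WT and +434 bp in GFP. Grm6 had 1 peak in ΔCC, 4 in ΔMBD, 2 in WT and 1 in GFP. At Grm6 a peak was centred at +639 bp in ΔCC, +662 bp in ΔMBD, +640 bp in WT and +639 bp in GFP. This centre barely moved while the number of peaks around it changed.

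The ionotropic glutamate receptors had 7 of 16 genes listed. Among NMDA subunits, whose channels need both glutamate and a co-agonist, Grin2a and Grin3a were in all 4 lists, and Grin2b and Grin2c in every list but GFP. Grin2a had 4 peaks in ΔCC, 3 in ΔMBD, 1 in WT and 1 in GFP. The WT centre at +60 bp and the GFP centre at -289 bp fell inside the range of the ΔCC centres, from -492 to +2196 bp, and of the ΔMBD centres, from -1583 to +2315 bp. The only peak of Grin2c lay over 1 kb upstream, at -1773 bp in ΔCC, -1660 bp in ΔMBD and -1172 bp in WT. Of the kainate subunits, Grik3 had 2 peaks in ΔCC, 3 in ΔMBD, 1 in WT and 1 in GFP, and Grik4 had 1 in WT alone. The AMPA subunit gene Gria2 had 1 peak, at +472 bp in ΔMBD, and was in no other list.

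Of 19 GABA-A subunit genes, the alpha subunit genes Gabra2, Gabra4 and Gabra5 were listed and the other 16 were in no table. Gabra5 was in all 4 lists. Gabra2 and Gabra4 lie close together on chromosome 5, with Cox7b2 between them. Gabra2 had 1 peak in ΔCC, 2 in ΔMBD and 1 in WT, and Gabra4 had 2 in ΔCC, 1 in ΔMBD and 1 in WT. Neither gene was listed in GFP.

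Among peptide receptors, Sstr1 had 1 peak in ΔCC, 1 in ΔMBD, 2 in WT and 2 in GFP. Sstr2 had peaks at +18 and +532 bp in ΔMBD and none in ΔCC, WT or GFP. Sstr4 was listed in ΔMBD and WT, with 2 peaks and 1 peak. Oprd1 had none in ΔCC, 1 in ΔMBD at +213 bp, 3 in WT from -664 to +848 bp and none in GFP. Hrh1, a histamine receptor, had 1 peak at +350 bp in ΔMBD and 1 at +367 bp in WT, nearly the same place, and was in neither ΔCC nor GFP. None of the 5 neuropeptide Y receptor genes was listed, whereas the gene of their ligand, Npy, was in all 4 lists.

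Of the 77 genes counted for the Gpr root, 11 were listed in some library, all of them in WT. The 77 leave out any renamed genes that no library listed. Gpr25, Gpr27, Gpr50 and Gpr124 were among those in all 4. Gpr27 had 1 peak in ΔCC, 4 in ΔMBD, 1 in WT and 1 in GFP. Gpr124, an adhesion receptor needed for the growth of brain vessels, had 2 peaks in ΔCC, 3 in ΔMBD, 2 in WT and 2 in GFP. Gpr126 and Gpr26 were listed in ΔMBD and WT and in neither of the others, and Gpr12 in WT alone at +777 bp. Gpr37, an orphan receptor of oligodendrocytes and dopamine neurons, had peaks at +1467 and +2104 bp in ΔCC, none in ΔMBD, 1 at +1286 bp in WT and 1 at +681 bp in GFP. It is the only gene of the 51 that ΔMBD alone lacked, although Grm8, which lies beyond Pot1a on chromosome 6, had a peak at +42 bp in ΔMBD. Of the genes that encode no receptor, Htra4 and Npy were in every list, Htra1 was in ΔMBD at +81 bp and WT at -65 bp, and Htra3 was in ΔMBD alone at +729 and +1237 bp.

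**Figure D1:**
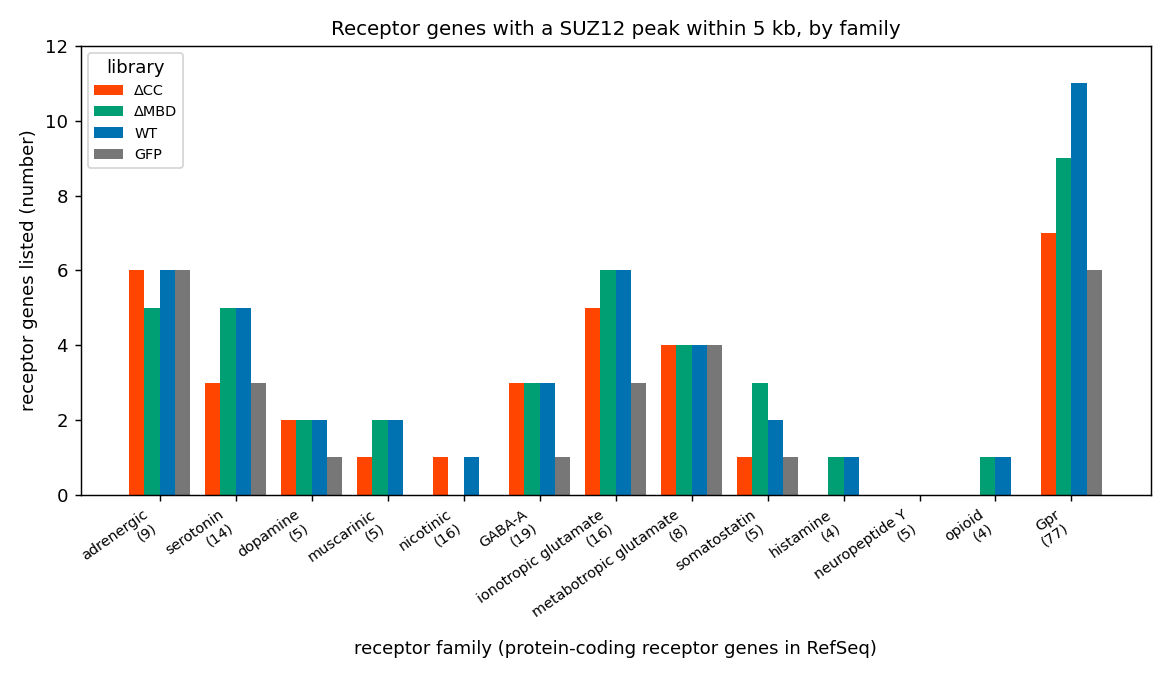
Receptor genes with a SUZ12 peak within 5 kb of the start site (vertical axis, number of genes) for each receptor family (horizontal axis, with the number of protein-coding genes counted as receptors in parentheses), in the ΔCC, ΔMBD, WT and GFP libraries. The 4 metabotropic glutamate genes were listed in each library, while the ionotropic glutamate genes numbered 5, 6, 6 and 3 in that order.

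**Figure D2:**
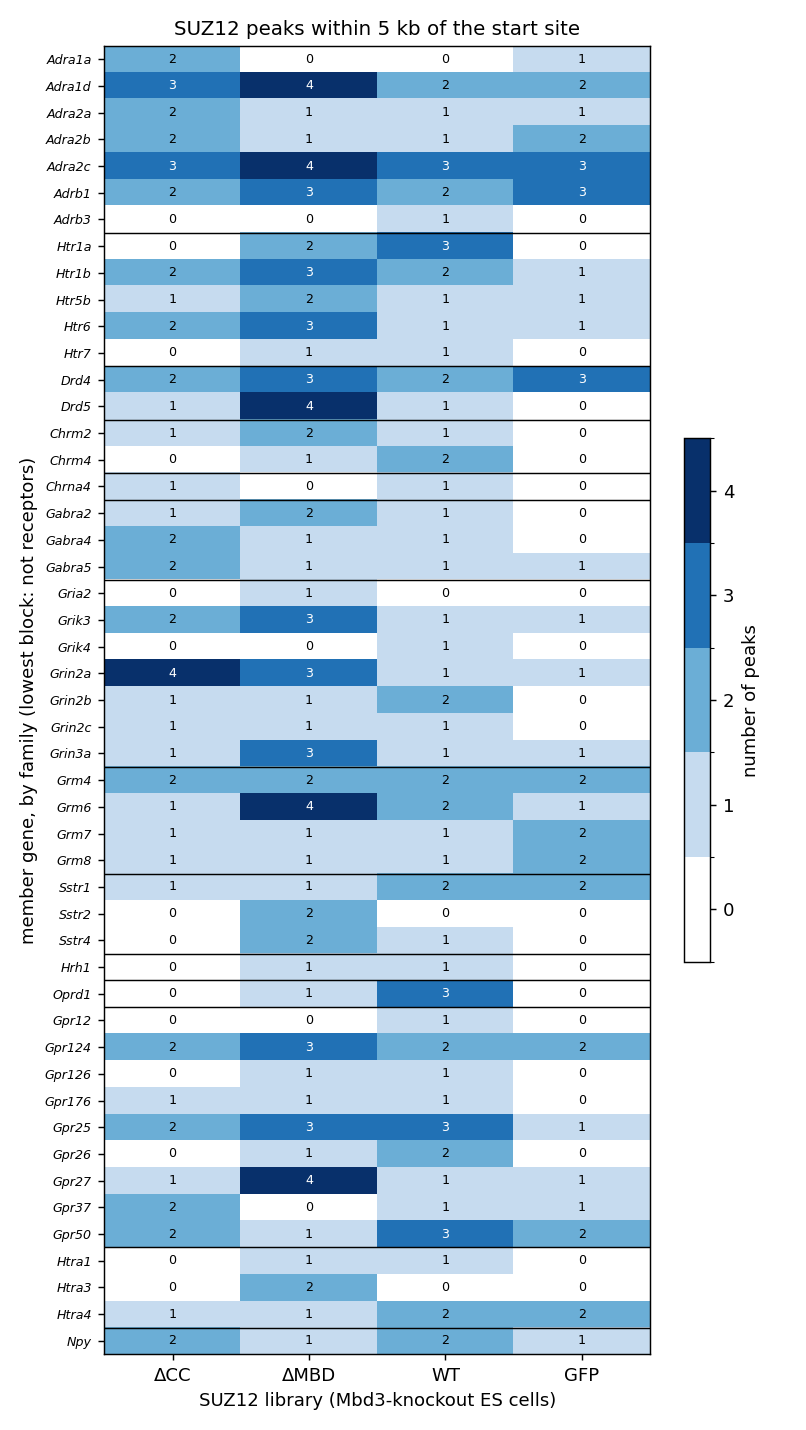
Number of SUZ12 peaks within 5 kb of the start site (colour and digit, 0 to 4) at 49 of the 51 genes, with 1 column for each library and lines between families. Empty cells in the GFP column outnumber those of the other columns, and 4 peaks were reached at 5 genes in ΔMBD and 1 in ΔCC.

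The listings of the 51 genes fell into 8 patterns. The largest held 25 genes, in every library (46.5% of all 1935 genes had this pattern). It was followed by 10 in ΔMBD and WT only (19.0% of all genes) and 7 in every library but GFP (8.73% of all genes). The 10 include Chrm4, Gpr126, Gpr26, Hrh1, Htr1a, Htr7, Htra1, Oprd1 and Sstr4, and 9 of the 10 encode G-protein receptors. The 7 are Chrm2, Drd5, Gabra2, Gabra4, Gpr176, Grin2b and Grin2c, of which 4 encode channel subunits. In the whole set, 36 of the 51 encode G-protein receptors and 11 encode channel subunits. The make-up of the patterns by class was not tested. The rest were Adrb3, Gpr12 and Grik4 in WT alone, Gria2, Htra3 and Sstr2 in ΔMBD alone, Adra1a in ΔCC and GFP, Chrna4 in ΔCC and WT, and Gpr37 in every library but ΔMBD. Of all 1935 genes, 133 were in WT alone, 130 in ΔMBD alone and 34 in ΔCC and GFP. A further 15 were in ΔCC and WT, and 13 in every library but ΔMBD. None of the 51 was listed in ΔCC alone or GFP alone. Only 47 and 10 of all 1935 genes had these patterns, so their absence here is no finding.

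For the coiled-coil domain, ΔCC was set against WT. ΔCC listed 34 of the 47 genes listed in WT. The 13 missing were 27.7% (interval 15.6 to 42.6), beside 34.1% of all WT genes. They comprised the 10 genes of the ΔMBD and WT pattern and Adrb3, Gpr12 and Grik4. In the other direction, 1 of the 35 ΔCC genes, Adra1a, was missing from WT (2.86%, interval 0.0723 to 14.9), beside 10.2% of all ΔCC genes. Both background shares lie inside the intervals, so the losses did not stand apart from those of the list as a whole.

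For the methyl-CpG-binding domain, ΔMBD listed 42 of the 47 WT genes. The 5 missing, Adrb3, Chrna4, Gpr12, Gpr37 and Grik4, were 10.6% (interval 3.55 to 23.1), beside 10.0% of all WT genes. Each had 1 peak in WT. In the other direction, Gria2, Htra3 and Sstr2 were in ΔMBD and not in WT, which is 6.67% of 45 genes (interval 1.40 to 18.3), beside 10.7% of all ΔMBD genes.

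WT with GFP asks which sites are listed with MBD3 put back. WT listed 26 of the 27 GFP genes, all but Adra1a (3.70% missing, interval 0.0937 to 19.0, beside 6.85% of all GFP genes). GFP lacked 21 of the 47 WT genes, which is 44.7% (interval 30.2 to 59.9), beside 41.2% of all WT genes. The 21 spanned all the families with a listed receptor gene but the metabotropic glutamate receptors.

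Between the deleted forms, ΔCC lacked 13 of the 45 ΔMBD genes (28.9%, interval 16.4 to 44.3, beside 33.7% of all). ΔMBD lacked Adra1a, Chrna4 and Gpr37 of the 35 ΔCC genes (8.57%, interval 1.80 to 23.1, beside 8.93% of all). Set against GFP, ΔCC held all 27 GFP genes, so 0 of 27 were missing (interval up to 12.8%, beside 7.90% of all), and held 8 more, Chrna4 and the 7 genes listed in every library but GFP. These are 22.9% of its 35 genes (interval 10.4 to 40.1), beside 20.7% of all. ΔMBD lacked Adra1a and Gpr37 of the 27 GFP genes (7.41%, interval 0.91 to 24.3, beside 5.99% of all), and GFP lacked 20 of the 45 ΔMBD genes (44.4%, interval 29.6 to 60.0, beside 41.1% of all). The 6 comparisons share the same 4 libraries and are not independent of each other.

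**Figure D3:**
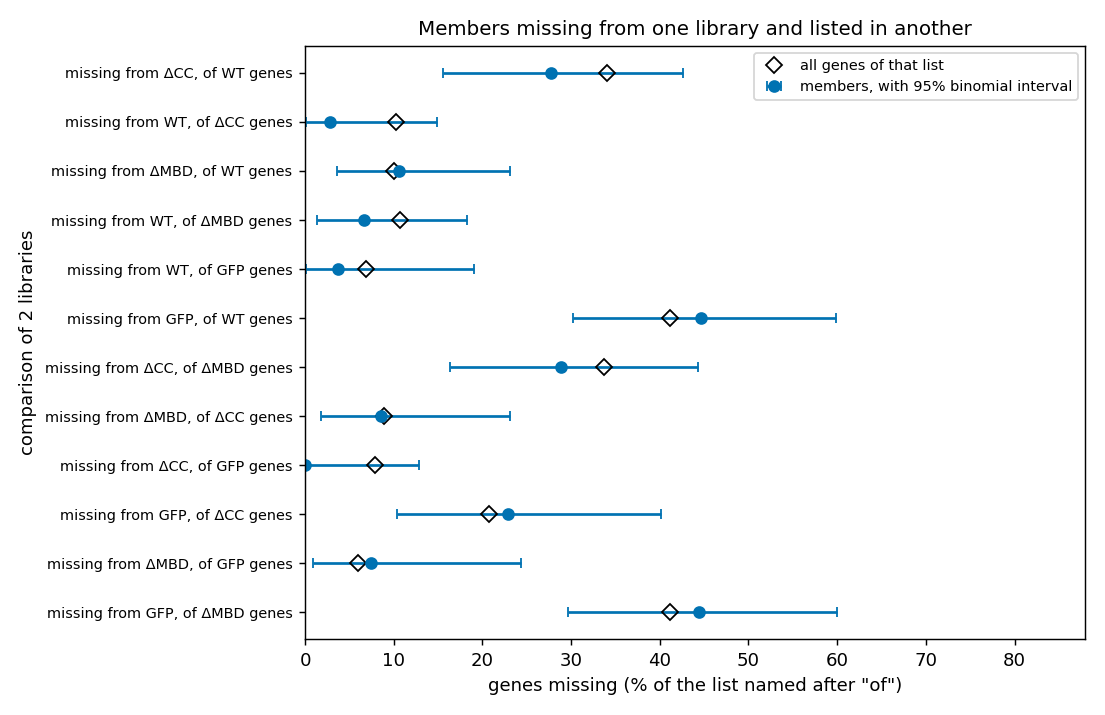
Share of the 51 genes missing from a library (horizontal axis, %), of those listed in another, for the 12 ordered pairs of libraries (vertical axis). Circles with bars give the share and its exact 95% binomial interval, diamonds the share over all genes of that list. Each diamond lies within the bar beside it.

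Channel and G-protein receptor genes were also counted apart. Of the 10 channel subunit genes listed in WT, 9 were listed in ΔCC (90.0%, interval 55.5 to 99.7), 8 in ΔMBD (interval 44.4 to 97.5%) and 4 in GFP (40.0%, interval 12.2 to 73.8). Of the 34 G-protein receptor genes listed in WT, 23 were listed in ΔCC (67.6%, interval 49.5 to 82.6), 31 in ΔMBD (91.2%, interval 76.3 to 98.1) and 20 in GFP (58.8%, interval 40.7 to 75.4). Channel genes missing from GFP and present in ΔCC were Chrna4, Gabra2, Gabra4, Grin2b and Grin2c. Of all 1664 WT genes, 65.9% were listed in ΔCC, 90.0% in ΔMBD and 58.8% in GFP. The G-protein receptor shares were near these, and the intervals of the channel genes hold them. The difference between classes was not tested.

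Peak numbers at the genes were compared next. The 51 genes carried 59 peaks in ΔCC, 88 in ΔMBD, 73 in WT and 43 in GFP. Per listed gene this is 1.69 in ΔCC, 1.96 in ΔMBD, 1.55 in WT and 1.59 in GFP, beside 1.91, 1.83, 1.65 and 1.86 over all listed genes in the same order. Genes with at least 3 peaks numbered 3 of 35 in ΔCC (8.57%, interval 1.80 to 23.1, beside 22.3% of all ΔCC genes), and 14 of 45 in ΔMBD (31.1%, interval 18.2 to 46.6, beside 20.2%). They numbered 6 of 47 in WT (12.8%, interval 4.83 to 25.7, beside 14.0%) and 3 of 27 in GFP (11.1%, interval 2.35 to 29.2, beside 20.4%). The share was below that of all genes in ΔCC, WT and GFP and above it in ΔMBD, in each case within the interval. The highest number was 4, reached in ΔMBD by Adra1d, Adra2c, Drd5, Gpr27 and Grm6 and in ΔCC by Grin2a.

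Of 42 genes listed in ΔMBD and WT, 17 had more peaks in ΔMBD (40.5%, interval 25.6 to 56.7, beside 35.2% of all shared genes) and 10 had fewer (23.8%, beside 21.5%). The number differed by at least 2 at Adra1d, Drd5, Gpr27, Gpr50, Grik3, Grin2a, Grin3a, Grm6, Htr6 and Oprd1. It was higher in ΔMBD at all of these but Gpr50 and Oprd1. Differences of at least 2 were not counted over all shared genes, so no background share stands beside them. Of 34 genes listed in ΔCC and WT, 9 had more peaks in ΔCC (26.5%, beside 34.1%) and 7 fewer (20.6%, beside 27.1%). Between the deleted forms, 16 of 32 shared genes had fewer peaks in ΔCC than in ΔMBD (interval 31.9 to 68.1%, beside 34.2% of all) and 7 had more (21.9%, beside 27.8%). Of 26 genes listed in WT and GFP, 6 had more peaks in WT (23.1%, beside 28.9%) and 5 fewer (19.2%, beside 31.7%). Against GFP, ΔMBD had more peaks at 12 of 25 shared genes (48.0%, interval 27.8 to 68.7, beside 36.7%) and fewer at 6 (24.0%, beside 26.7%), and ΔCC had more at 11 of 27 (40.7%, beside 34.8%) and fewer at 6 (22.2%, beside 26.0%). The background share falls inside each interval given here.

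**Figure D4:**
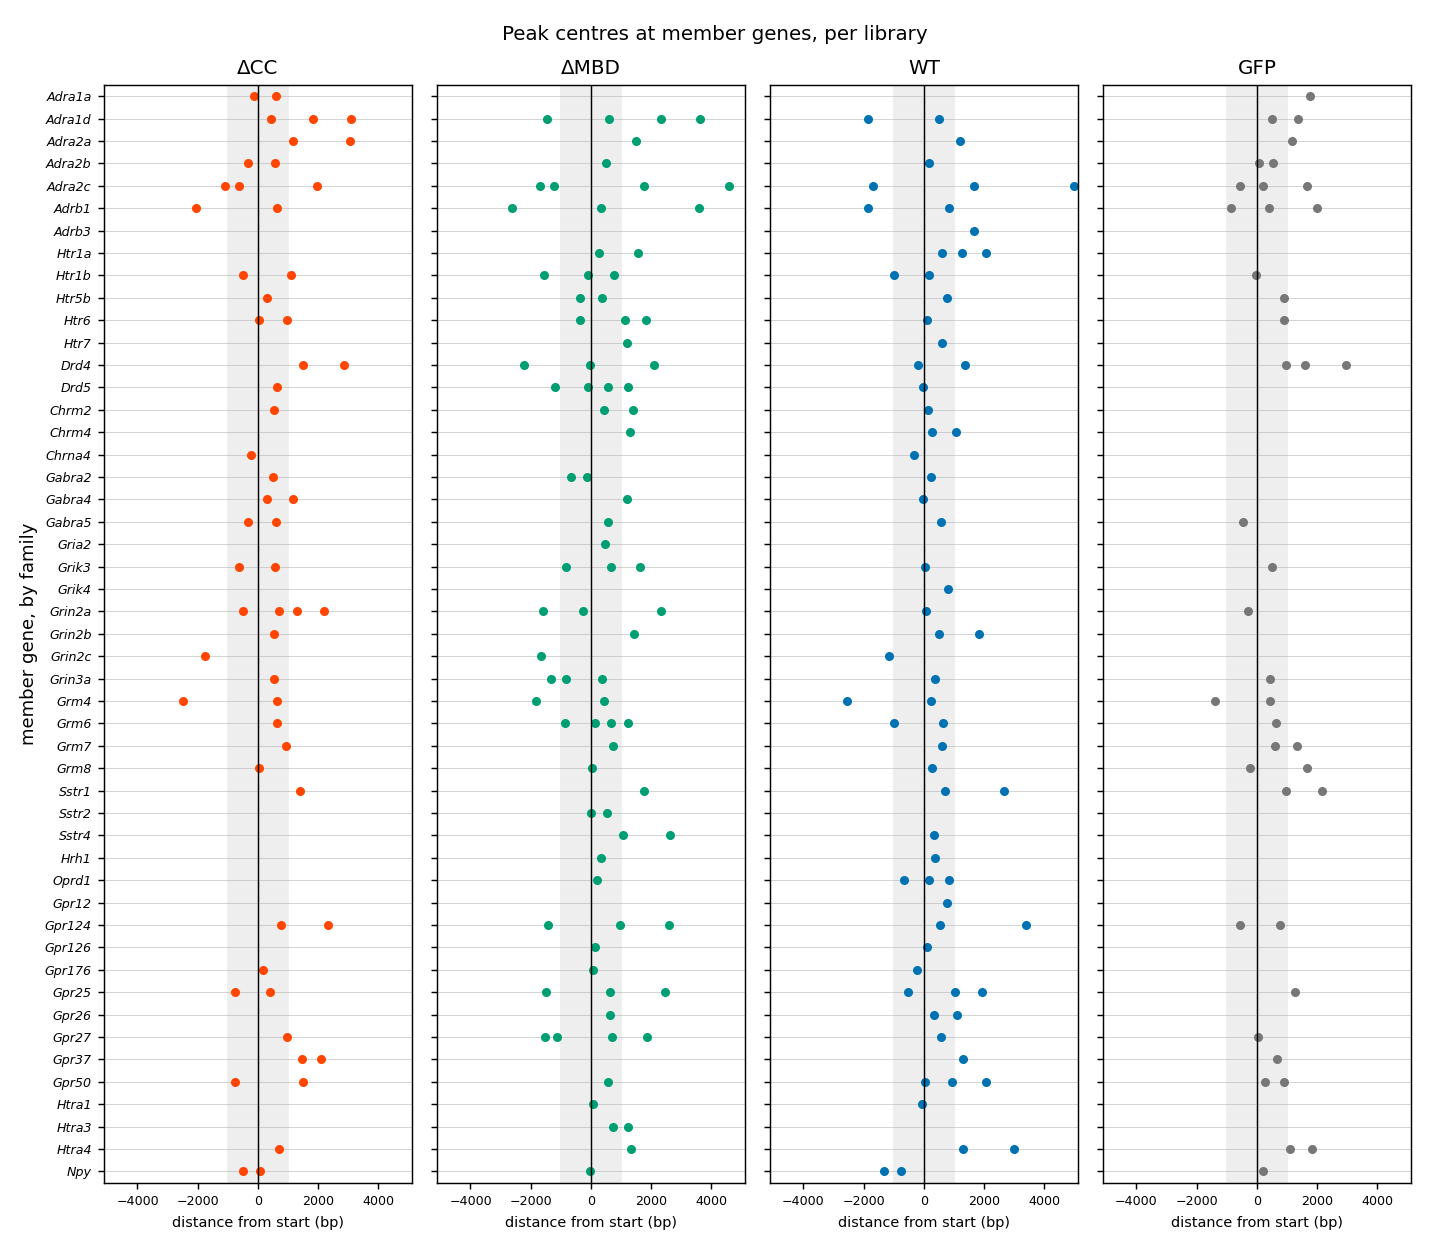
Distance of each SUZ12 peak centre from the start site (horizontal axes, bp, positive downstream) at 49 of the 51 genes (rows, by family), with 1 panel for each library and the band within 1 kb shaded. The ΔMBD panel holds 84 centres and the GFP panel 41, and most centres lie to the right of the start.

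Most peaks at these genes were centred downstream of the start. The share was 74.6% in ΔCC (interval 61.6 to 85.0), 69.3% in ΔMBD (58.6 to 78.7), 75.3% in WT (63.9 to 84.7) and 81.4% in GFP (66.6 to 91.6). Over all listed genes it was 65.7% in ΔCC, 66.8% in ΔMBD, 68.7% in WT and 67.0% in GFP. The median signed distance was +587 bp in ΔCC, +516.5 bp in ΔMBD, +499 bp in WT and +681 bp in GFP. Peaks of a gene are not independent of each other, which these intervals do not take into account.

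Centres within 1 kb of the start made up 62.7% of the peaks in ΔCC (interval 49.1 to 75.0), 48.9% in ΔMBD (38.1 to 59.8), 61.6% in WT (49.5 to 72.8) and 65.1% in GFP (49.1 to 79.0). Over all listed genes the shares were 45.8% in ΔCC, 48.3% in ΔMBD, 51.5% in WT and 45.0% in GFP. In ΔCC and GFP the share over all genes lies below the interval of the receptor set. In ΔMBD and WT it lies inside the interval. These intervals also treat the peaks of a gene as independent, and so may be too narrow. Peaks per gene were fewer than over all genes in ΔCC (1.69 beside 1.91), WT (1.55 beside 1.65) and GFP (1.59 beside 1.86). In ΔMBD they were more (1.96 beside 1.83). Whether this bears on these shares was not tested. Per gene, the closest centre lay a median of 545 bp away in ΔCC, 472 bp in ΔMBD, 455 bp in WT and 517 bp in GFP. Over all genes these medians were 597, 601, 579.5 and 658 bp in the same order, farther away in each library. Adjacent peaks of a gene were a median of 1174.5 bp apart in ΔCC, 1308 bp in ΔMBD, 1352.5 bp in WT and 1007.5 bp in GFP.

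Many centres had a centre of another library nearby at the same gene. A peak is called matched here when the other library has a peak centred within 1 kb of it at the same gene. Adjacent peaks of a gene lay a median of 1007.5 bp (GFP) to 1352.5 bp (WT) apart, so a match need not be the same centre. A peak at a gene that the other library does not list counts as unmatched, so these shares also reflect listing. Of the ΔCC peaks, 81.4% (interval 69.1 to 90.3) had a WT match, beside 65.7% over all genes, and 86.4% (75.0 to 94.0) had a ΔMBD match, beside 67.7%. Of the ΔMBD peaks, 70.5% (59.8 to 79.7) had a WT match, beside 71.8%. Of the WT peaks, 58.9% (46.8 to 70.3) had a ΔCC match, 84.9% (74.6 to 92.2) a ΔMBD match and 39.7% (28.5 to 51.9) a GFP match, beside 52.1%, 77.0% and 43.3%. Where GFP listed a gene its centres were near those of WT: 76.7% of the GFP peaks (61.4 to 88.2) had a WT match, beside 65.3%. Of these, the shares over all genes fell below the interval for the ΔCC peaks set against WT and against ΔMBD, and inside it for the rest. The intervals treat the peaks of a gene as independent, and so may be too narrow.

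At genes listed in both libraries of a pair, the centre closest to the start moved by a median of 410 bp between ΔCC and WT, 325.5 bp between ΔMBD and WT and 393.5 bp between WT and GFP. Over all shared genes the medians were 412, 390 and 430 bp. Moves of this size are thus common in the tables as a whole.

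No peak at the 51 genes was linked to a second gene. The number of peaks behind this was 59 in ΔCC, 88 in ΔMBD, 73 in WT and 43 in GFP. Over all genes, 3.74% of the distinct peaks in ΔCC, 2.98% in ΔMBD, 2.66% in WT and 3.12% in GFP were linked to more than 1 gene within 5 kb. The exact upper limits of 6.06%, 4.11%, 4.93% and 8.22% for the receptor peaks, in the same order, lie above these shares.

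Peak numbers followed gene order at 99.0 to 99.5% of neighbouring listed genes in each library, so they show which peaks lay around a gene missing from a list. In 50 cases a gene of the 51 was missing from a library. In 32 of these, each peak number between the listed genes on both sides was itself linked to a gene within the table. This held for 11 of 16 cases in ΔCC, 4 of 6 in ΔMBD, 3 of 4 in WT and 14 of 24 in GFP. The same count was not made over all genes missing from a library, so whether these numbers are usual is not known. At Gpr37, missing from ΔMBD, the ΔMBD peaks at the flanking genes Tmem229a and Grm8 left no unlinked number between them. Gabra2 and Gabra4 in GFP, between Kctd8 and Corin, were the same, as were Gpr126, Htr1a, Oprd1, Sstr4 and Gpr26 in both ΔCC and GFP. Chrm4 and Htr7 had no unlinked number in ΔCC but 1 and 3 in GFP. In 18 cases unlinked numbers were present, among them Gpr176 with 4 in GFP and Chrna4 with 1 in ΔMBD and 1 in GFP. In neither kind of case can a centre farther than 5 kb from the missing gene be told apart from no peak, since a peak linked to a flanking gene may also lie beyond that distance.

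Other genes of transmitter signalling were listed as well. They come from lists chosen with earlier results of these data known. The shares of these lists, here and below, thus carry no test and are no independent support. Of 26 genes for making, packing and taking up transmitters, 6 were listed in ΔCC, 10 in ΔMBD, 8 in WT and 7 in GFP. These are 23.1% in ΔCC, 38.5% in ΔMBD, 30.8% in WT and 26.9% in GFP, beside 5.37%, 7.37%, 7.32% and 4.61% of all protein-coding symbols in the same order. Gad1 and Gad2, which make GABA, Slc32a1, which loads it into vesicles, Chat, which makes acetylcholine, and the noradrenaline and glycine transporter genes Slc6a2 and Slc6a5 were in all 4. The peak of Chat lay at +1795 bp in ΔCC, +2235 bp in ΔMBD, +2121 bp in WT and +1898 bp in GFP. Slc6a4, the serotonin transporter gene, was listed in ΔMBD, WT and GFP and not in ΔCC. The enzyme genes Th, Ddc, Dbh, Tph1 and Tph2 and the vesicular glutamate transporter genes Slc17a6, Slc17a7 and Slc17a8 were in no list.

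Of 39 genes for G proteins, adenylyl cyclases, regulators of G-protein signalling and arrestins, 6 were listed in ΔCC, 9 in ΔMBD, 11 in WT and 5 in GFP. These are 15.4% in ΔCC, 23.1% in ΔMBD, 28.2% in WT and 12.8% in GFP, beside the same 5.37%, 7.37%, 7.32% and 4.61%. Gnai1, an inhibitory alpha subunit, Gnas, the stimulatory one, and the cyclase genes Adcy5, Adcy6 and Adcy8 were in every list. Gnal, Gnao1, Gng4 and Rgs20 were in ΔMBD and WT only. Adcy9 was in ΔCC alone, at +31 bp, and Adcy1 and Gna14 in WT alone. All 5 Gnb genes were in none.

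Of 53 further receptor genes with other prefixes, 10 were listed in ΔCC, 13 in ΔMBD, 13 in WT and 9 in GFP. Those in every list included Oxtr, the oxytocin receptor, Gabbr2, a subunit of the metabotropic GABA receptor, and Grid1, a delta glutamate receptor. Adora2a, Cnr1 and Kiss1r, for adenosine, cannabinoids and kisspeptin, were in ΔMBD and WT only, and Adora1 in every list but GFP. The shares of the 53 were 18.9% in ΔCC, 24.5% in ΔMBD, 24.5% in WT and 17.0% in GFP. Those of all protein-coding symbols were 5.37%, 7.37%, 7.32% and 4.61%. The shares of the 53 were near those of the 193 prefix symbols. Both sets were chosen with earlier results known, so neither backs the other. The glycine receptor genes Glra1, Glra2, Glra3 and Glrb and the P2rx genes were in no list.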

How the data were processed

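SUZ12 ChIP-seq libraries were read as single ends (NextSeq 500 in the labels' protocols). For processing, the submitters' notes give mm9, MACS2 and bcl2fastq 2.18.0.12. Aligner, MACS2 settings and use of the input are not given in the sources at hand. Per the file headers, the authors linked the peaks of each library to genes with GREAT 3.0.0 (2 nearest genes, 5000 bp, curated domains). The deposited values are signed distances in bp, with no read numbers or heights, so depth and its precision are unknown.

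From these, genes listed within 5 kb, numbers of peaks, matches within 1 kb, and unlinked peak numbers between listed genes were computed with Python 3.11.15 and SciPy 1.17.1 (figures with matplotlib 3.10.9), and the functions were tested on simulated lists. Of the 51 symbols, 49 matched RefSeq (GRCm38.p6) directly and 2 by a synonym. RefSeq served for names, gene order and promoters. Shares carry exact Clopper-Pearson 95% intervals. With 1 library per group no test was run. Genes named were those not listed in every library, and of the rest those with the most peaks, with peak numbers differing by 2 or more, or nearest the 5 kb limit, with the others by name. Promoters printed came from genes whose closest peak lay within 500 bp in every library listing them. Members, lists and textbook subgroups were chosen with earlier results of these data known. Alternatives were other windows, peak minimum and matching distance, and leaving out non-receptor symbols. Some genes counted in the totals are not reported here by name.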

Additional observations from a re-analysis of the deposited data

How the results depend on the processing

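No pair of the 51 genes lay beyond the window, so using all deposited pairs could not change their values. Among the other alternatives, 85 values stayed within the interval or 1.5 times the count of the value reported and 59 moved. Current RefSeq symbols, or leaving out Htra1, Htra3, Htra4 and Npy, moved none. Asking for at least 2 peaks moved the most. It left 20 genes in ΔCC, 24 in ΔMBD, 20 in WT and 13 in GFP. The share of WT genes missing was then 45.0% from ΔCC (all genes at this setting 55.2%) and 40.0% from ΔMBD (30.7%). Of ΔCC genes, 45.0% were missing from WT (46.3%), 40.0% from ΔMBD (34.9%) and 55.0% from GFP (41.0%). Of ΔMBD genes, 50% were missing from WT (42.7%), 50% from ΔCC (55.2%) and 70.8% from GFP (63.0%). Of GFP genes, 23.1% were missing from WT (47.8%), 30.8% from ΔCC (32.2%) and 46.2% from ΔMBD (38.3%). Each share over all genes lies inside the interval of the set. Under this setting, chosen for the classes after seeing the data, Grin2b was the 1 channel gene left in WT, so 0% of the WT channel genes were in ΔCC, 0% in ΔMBD and 0% in GFP, and 70.6% of the WT G-protein receptor genes were in ΔMBD. Transmitter genes then numbered 2 in ΔCC, 6 in ΔMBD, 3 in WT and 4 in GFP, G protein genes 7 in WT and 1 in GFP, and other receptors 4 in ΔCC and 3 in GFP. No share of all symbols at this setting is given beside these list counts.

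With a window of 1000 bp, 17.4% of GFP genes were missing from ΔCC, transmitter genes numbered 6 in ΔMBD and 3 in GFP, and G protein genes 3 in GFP. No missing share over all genes is given at this window, and no share of all symbols beside the list counts. The match was then 73.0% for ΔCC peaks with ΔMBD, 83.7% for ΔMBD peaks with WT and 64.3% for GFP peaks with ΔMBD. No match over all genes was computed at this window or at the other matching distances. Whether the ΔCC shares stand apart at these settings is thus not known. Counting the closest peak of each gene alone, 82.9% lay within 1 kb in ΔCC, 75.6% in ΔMBD, 85.1% in WT and 85.2% in GFP. The share over all genes was not computed at this setting. With matching within 500 bp, the ΔCC peaks matched at 49.2% with WT, 57.6% with ΔMBD and 40.7% with GFP. The ΔMBD peaks matched at 47.7% with WT, 37.5% with ΔCC and 25.0% with GFP. For WT peaks it was 39.7% with ΔCC and 57.5% with ΔMBD, and for GFP peaks 55.8% with WT, 58.1% with ΔCC and 55.8% with ΔMBD. Within 2000 bp, the ΔCC peaks matched at 93.2% with WT and 81.4% with GFP, and the ΔMBD peaks at 87.5% with WT, 71.6% with ΔCC and 59.1% with GFP. For WT peaks it was 93.2% with ΔMBD and 54.8% with GFP, and for GFP peaks 97.7% with WT, 100% with ΔCC and 95.3% with ΔMBD. Wider or narrower matching gives more or fewer matches by construction. A higher peak minimum or a narrower window cannot list more genes. Keeping the closest peak alone leaves out the farther peaks of each gene. For the other values the cause was not tested.

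The 1 library per culture limits all of these comparisons: a difference between libraries cannot be told apart from a difference in depth, antibody yield or peak calling. The shorter promoter window was not run, because too few of the genes had a promoter entry. No paired analysis was possible because each group had 1 library.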
